A study of Arabidopsis thaliana with 36 samples.

Results

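The nuclear leucine (Leu), serine (Ser) and tyrosine (Tyr) tRNAs of Arabidopsis thaliana carried 51 pseudouridine (Ψ) sites on 25 tRNA names. These are all sites in the tRNA table whose name starts with Leu, Ser or Tyr and ends in nuclei, whatever their level, out of 349 tRNA sites and 535 rRNA and tRNA sites in the series. Ser names gave 26 sites, Leu names 15 and Tyr names 10, over 10 anticodons. Wild-type Col-0 plants were profiled in 9 tissues by BID-seq of total RNA, a method in which bisulfite marks Ψ so that reverse transcription skips the base and the Ψ is read as a deletion. Seedlings, shoots and roots came from younger plants on MS plates. Rosetta leaves (spelled as in the labels) came from older plants moved to soil. Cauline leaves, stems, flowers and siliques came from such plants after flowering, and seeds were mature and dried. For each tissue there were 2 libraries treated with bisulfite and 2 input libraries without it, and tissues were the groups compared. The deposited value is the Ψ fraction, the share of molecules with Ψ at a base from 0 to 1, pooled by the authors over the replicates of a tissue. It comes with a flag, true or false per tissue, from the authors' filter on p-values. The error between replicates and the number of reads per value are both unknown here, so differences are described without a test. Sites of 1 tRNA, and names that share genes, are not independent of each other.

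Ψ is made from uridine by pseudouridine synthases, each of which acts on certain places of the tRNA. Position 55 in the T loop, made by Pus4 in yeast and TruB in Escherichia coli, takes part in the contact between the T loop and the D loop that gives a tRNA its L shape. Positions 38 and 39 at the foot of the anticodon loop are made by Pus3 in yeast, and position 27 at the top of the anticodon stem by Pus1 in yeast. Position 35, the middle base of the Tyr anticodon, is made by Pus7 in yeast and is known to need the intron of the precursor in yeast and in plants. Leu and Ser tRNAs of the cytosol differ from other tRNAs in a long variable arm between the anticodon arm and the T arm, which the Ser synthetase reads.

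The table counts bases along the authors' own reference sequences, so each site was placed by structure on RefSeq tRNA genes (assembly TAIR10.1) of the same anticodon with a T at every listed position. All 25 names matched at least 1 nuclear gene. The bases from 49 to 73 were counted back from the last base before the added CCA, those from 27 to 43 outwards from the anticodon, and those from 1 to 7 from the 5′ end. The annotated Leu genes of these anticodons had 11 to 17 bases in the variable arm (40 genes) and the Ser genes 14 to 19 (63 genes). The rule that chose the set gives a long variable arm as the trait of its tRNAs, and this did not hold for Tyr. Among the 70 Tyr genes in which the anticodon could be placed, 69 had 8 bases or fewer there, with a median of 6.

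Representative genes show where the listed bases lie, with the listed bases in capitals and introns left out. They were chosen because the differences between anticodons described below turn on them. The Leu genes are AT1G74570 (chr1:28020383-28020463, minus strand), AT1G20040 (chr1:6948860-6948943, minus strand) and AT1G11550 (chr1:3881529-3881608, plus strand). Position 55 is the capital in the stretch gggtTc of each.
Leu-AAG-1: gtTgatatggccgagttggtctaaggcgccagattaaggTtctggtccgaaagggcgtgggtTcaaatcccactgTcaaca
Leu-CAA-1: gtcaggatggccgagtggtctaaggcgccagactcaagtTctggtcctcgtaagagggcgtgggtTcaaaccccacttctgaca
Leu-TAG-1: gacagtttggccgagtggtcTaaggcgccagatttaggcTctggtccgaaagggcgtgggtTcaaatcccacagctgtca
The Ser genes are AT1G17570 (chr1:6038757-6038838, plus strand), AT3G09585 (chr3:2944612-2944693, plus strand), AT2G44320 (chr2:18309977-18310058, minus strand) and AT1G55625 (chr1:20791311-20791392, plus strand). Ser-CGA-1 and Ser-TGA-1 share the capital after position 55, position 68 in the 3′ strand of the acceptor stem.
Ser-AGA-1-b: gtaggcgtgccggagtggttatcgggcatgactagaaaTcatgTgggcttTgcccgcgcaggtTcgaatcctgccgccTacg
Ser-CGA-1: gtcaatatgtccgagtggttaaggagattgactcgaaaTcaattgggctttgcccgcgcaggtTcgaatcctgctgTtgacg
Ser-GCT-1: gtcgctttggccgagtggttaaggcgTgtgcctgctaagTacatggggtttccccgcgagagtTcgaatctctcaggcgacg
Ser-TGA-1: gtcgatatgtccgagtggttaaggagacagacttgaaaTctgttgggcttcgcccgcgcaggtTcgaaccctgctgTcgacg
The Tyr genes are AT1G56750 (chr1:21269552-21269636, plus strand, intron included), whose spliced sequence 32 genes share, and AT2G07753 (chr2:3303354-3303428, minus strand), which carries no annotated intron.
Tyr-GTA-1-b: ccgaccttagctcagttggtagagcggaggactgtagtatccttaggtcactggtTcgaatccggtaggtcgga
Tyr-GTA-1-a: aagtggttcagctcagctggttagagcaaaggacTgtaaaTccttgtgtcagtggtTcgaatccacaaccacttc

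A deletion inside a run of the same base can be read at any base of the run, and 32 of the 51 listed bases stand next to another T. This holds for all 25 sites at position 55, and for the Leu-AAG-1 and Leu-CAA-1 sites among the 10 sites at positions 38 and 39, whose run spans both positions. Leu-AAG-1 at 38 and Leu-CAA-1 at 39 are therefore compared below as the same place.

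By structure, 26 sites lay in the T loop, 15 in the anticodon arm, 6 in the acceptor stem, 3 in the variable arm and 1 in the D arm. Position 55 was taken wherever any matched gene gave it. By this rule every name held a site at position 55, and 11 names held no other, among them 7 of the 8 Tyr names. For Tyr-GTA-3 and Tyr-GTA-6 this rests on 1 matched gene each, and for Tyr-GTA-3 the sequence of that gene goes against it, as described below. The median of the site medians was 0.911, beside 0.870 for the 185 other nuclear tRNA sites and 0.882 for all tRNA sites. The sets differ in make-up, since position 55 held 25 of the 51 sites here and 63 of the 185 others. T-loop sites had a median of 0.965 and anticodon-arm sites of 0.725. In the 13 names that list both arms the T-loop fraction was the higher in at least 8 of the 9 tissues at each of the 15 anticodon-arm sites. The variable-arm sites were near the bottom of the scale, with medians of 0.006 to 0.062. The medians of the 3 amino acids were closer together, at 0.911 for Leu, 0.906 for Ser and 0.945 for Tyr. A site ranged over its tissues by a median of 0.186 (50 sites with 9 values; other nuclear sites 0.208), and by 0.115 with root left out.

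**Figure D1:**
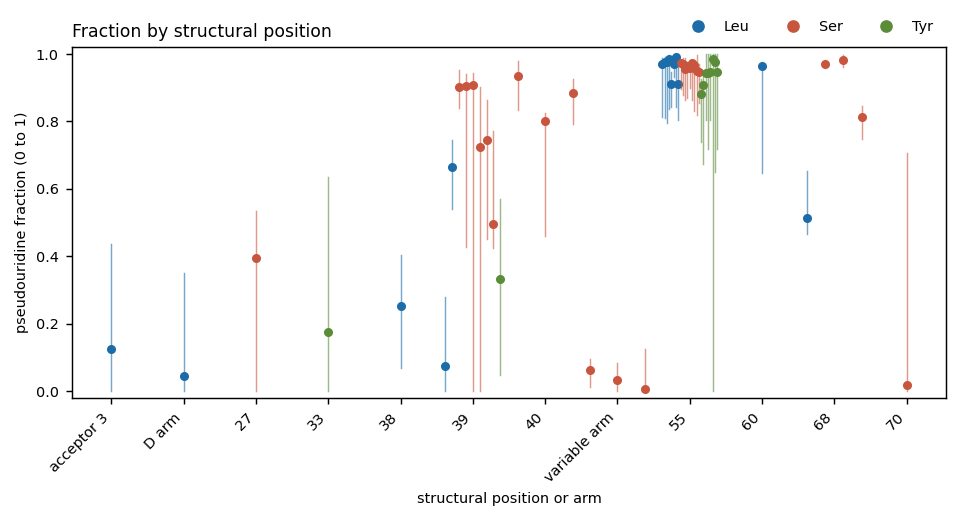
Ψ fraction (vertical axis, 0 to 1) of the 51 sites by structural position or arm (horizontal axis); each point is a site's median over its tissues, each line runs from its lowest to its highest tissue, and colours mark Leu, Ser and Tyr. The 25 sites at position 55 have medians between 0.882 and 0.990, while those at position 39 run from 0.073 to 0.908.

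The filter was passed in all 9 tissues by 23 of the 51 sites (45.1%), where 54.7% of all tRNA sites and 60.0% of the other nuclear sites did so. With a fraction of at least 0.1 in place of the flag the count was 37, and the share of all tRNA sites under that rule is not given here. Another 5 sites passed in 1 tissue only, near the background of 9.17% of all tRNA sites. Seed had the fewest passes, 26 of the 51 sites (51%) against 61.9% of all tRNA sites. Seedling had the most, with 43 sites (84.3%, all tRNA sites 81.1%). Between these stood rosetta leaf with 42 (82.4%, all 85.4%), shoot with 40 (78.4%, all 84.2%), cauline leaf with 40 (78.4%, all 75.4%) and root with 37 (72.5%, all 73.9%). Stem, flower and silique each had 38 (74.5%), beside 79.9%, 79.7% and 82.2% of all tRNA sites. No value of exactly 0 had passed, and such a value is given below only as listed at 0, since it may be a failed estimate.

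**Figure D2:**
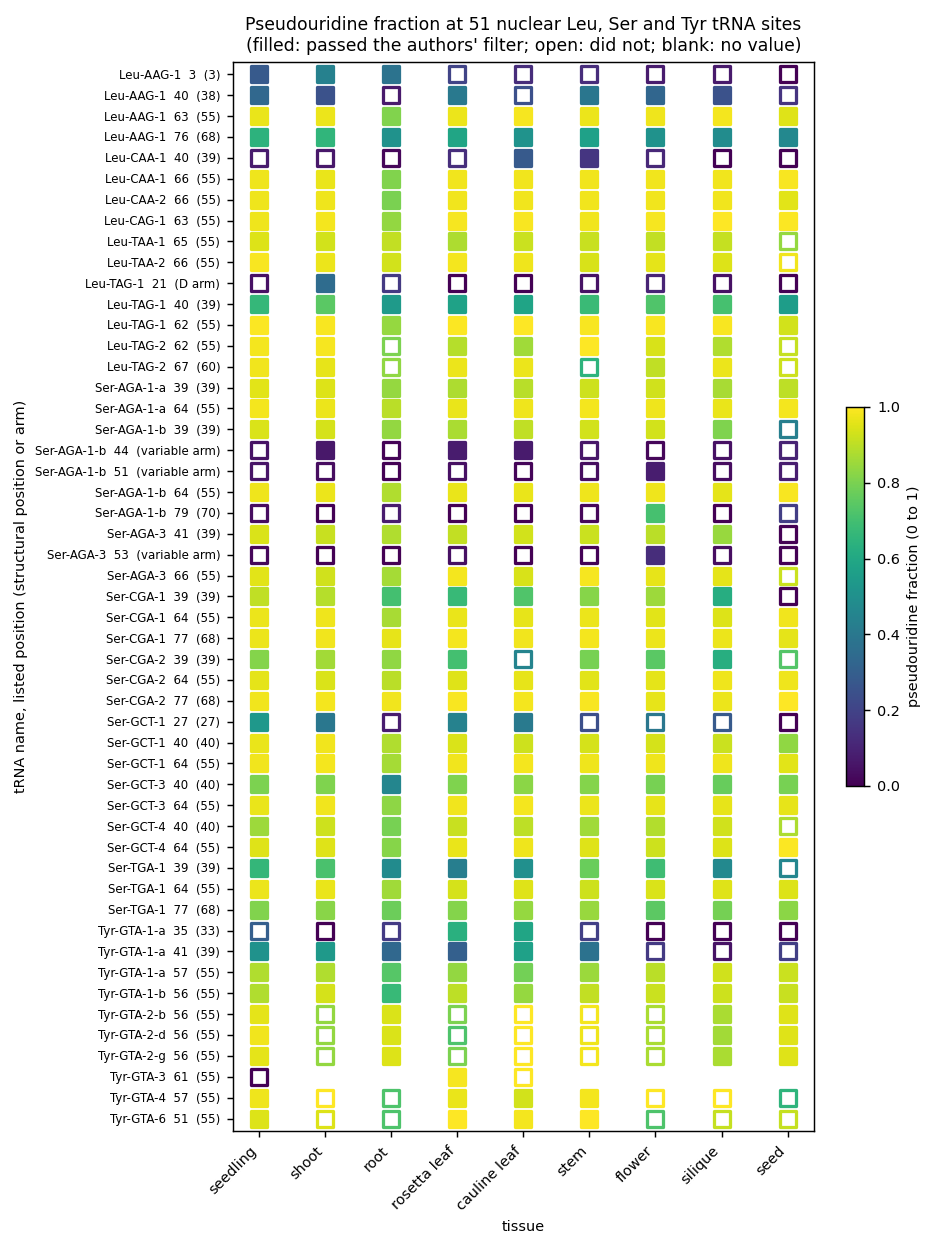
Ψ fraction (colour, 0 to 1) of each of the 51 sites (rows, with the listed position and, in brackets, the structural position or arm) in 9 tissues (columns); filled squares passed the authors' filter, open squares did not and blanks have no value. Position 55 is at 0.650 or more in every name with values in 9 tissues, with the root column lower in most Leu and Ser names, and the open squares gather in the seed column and in the low rows.

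Position 55 was close to saturated: 24 of 25 site medians were at least 0.9, and the median was 0.966, beside 0.943 over the 63 other nuclear names that list it. The filter was passed in all 9 tissues at 8 of 9 Ser names, 5 of 8 Leu names and 2 of 8 Tyr names, together 15 of 25 (60%), where 87.3% of the other nuclear sites at position 55 did so. The highest medians belonged to Leu-TAG-1 (0.990, from 0.843 in root to 1.000 in cauline leaf), to Leu-CAG-1 (0.985, from 0.836 in root to 0.997 in silique) and to Tyr-GTA-3, which had values in only 3 tissues. Tyr-GTA-3 was listed at 0 in seedling, at 0.985 in rosetta leaf and at 1.000 in cauline leaf, and only the rosetta leaf value had passed. Its place at 55 is unsure, since 70 of its 71 matched genes put the base at position 60. In the remaining gene the listed base is the earlier T of the stretch ggttc, whereas in the Tyr-GTA-4 gene it is the later T. The remaining gene is annotated to end in accactt and the Tyr-GTA-4 gene in accacttc, which shifts the count from the 3′ end. Set against the Tyr-GTA-4 gene, the Tyr-GTA-3 base lies 1 base before position 55. It stays among the 25 sites here only by the counting rule. The lowest medians belonged to Tyr-GTA-1-a (0.882, from 0.738 in root to 0.926 in silique), Tyr-GTA-1-b (0.909, from 0.673 in root to 0.934 in shoot) and Leu-TAA-1 (0.911, from 0.843 in seed to 0.948 in seedling). Among the names with 9 values the widest ranges over tissues were also in Tyr. Tyr-GTA-4 ran from 0.650 in seed to 1.000 in shoot, flower and silique, and Tyr-GTA-2-d and Tyr-GTA-6 both from 0.719 to 1.000. Most of these extremes had not passed, and the passed values ran from 0.933 to 0.981 in Tyr-GTA-4, from 0.862 to 0.978 in Tyr-GTA-2-d and from 0.947 to 1.000 in Tyr-GTA-6. The median range at position 55 was 0.114 for Ser, 0.168 for Leu and 0.261 for Tyr over all values. Over passed values alone it was 0.114, 0.159 and 0.087, so the order of the 3 amino acids changed. Most Tyr names had passed in 4 tissues only, while 8 of 9 Ser names had passed in all 9. A range over fewer tissues tends to be smaller, so the passed ranges of the amino acids are not alike in make-up.

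Leu-TAG-2 was the single name with another site in the T loop, at position 60, where none of the other nuclear sites that could be placed fell. The fraction there was 0.977 in seedling, 0.964 in shoot, 0.834 in root, 0.972 in rosetta leaf, 0.971 in cauline leaf, 0.646 in stem, 0.903 in flower, 0.972 in silique and 0.922 in seed. It passed in 6 tissues, not in root, stem or seed. The site thus stood at the level of position 55 of the same name, whose median was 0.911, and position 55 was the higher of the pair in 4 of 9 tissues. Position 60 is a T in all matched genes of 20 of the 25 names, and none of the other 19 was assigned a site there. One of these, Tyr-GTA-3, has its listed base at position 60 in 70 of its 71 matched genes, as described below.

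In Ser tRNAs the foot of the anticodon stem separated the anticodons. At position 39 the median was 0.904 over the 3 AGA names, 0.735 over the 2 CGA names and 0.497 for Ser-TGA-1. Ser-AGA-1-a gave 0.954 in seedling, 0.946 in shoot, 0.841 in root, 0.876 in rosetta leaf, 0.892 in cauline leaf, 0.923 in stem, 0.926 in flower, 0.869 in silique and 0.902 in seed, and passed in all. Ser-TGA-1 gave 0.661, 0.713, 0.479, 0.424, 0.497, 0.772, 0.688, 0.469 and 0.459 in the same order and passed in all but seed. These ranges do not overlap. Every AGA name was above every CGA name in 8 of 9 tissues, the exception being seed, and every CGA name was above Ser-TGA-1 in 7 of 9, the exceptions being cauline leaf and seed. In the 7 tissues in which all the names compared had passed, both orders held in each. In the AGA, CGA and TGA genes printed above, the bases from the end of the anticodon to position 40 are the same, with a lone T at 39, and the genes differ in the anticodon and in the stem.

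The remaining AGA and CGA names resembled their partners in most tissues. Ser-AGA-1-b (median 0.904) lay within 0.05 of Ser-AGA-1-a in 7 of 9 tissues and differed most in seed, where it stood at 0.428. Ser-AGA-3 (median 0.908) lay within 0.05 of Ser-AGA-1-a in 8 of 9 and was listed at 0 in seed. Ser-CGA-1 gave 0.903 in seedling, 0.887 in shoot, 0.702 in root, 0.672 in rosetta leaf, 0.725 in cauline leaf, 0.820 in stem, 0.854 in flower, 0.622 in silique and 0 in seed. Ser-CGA-2, which matches the same 4 genes, gave 0.816, 0.863, 0.833, 0.702, 0.452, 0.795, 0.745, 0.628 and 0.731 in that order. The pair was within 0.05 in 4 of 9 tissues. The seed values of Ser-AGA-1-b, Ser-AGA-3, Ser-CGA-1 and Ser-CGA-2, and the cauline leaf value of Ser-CGA-2, had not passed.

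Ser-GCT names listed position 40 in place of 39, and none of the other nuclear sites that could be placed fell there. Their genes carry no T at 39 and a T at 40. Medians were 0.934 for Ser-GCT-1, 0.885 for Ser-GCT-4 and 0.802 for Ser-GCT-3. Ser-GCT-1 ran from 0.835 in seed to 0.979 in shoot and Ser-GCT-4 from 0.793 in root to 0.926 in silique. Ser-GCT-3 gave 0.459 in root, while its other 8 tissues lay between 0.767 and 0.826. The 3 names match nearly the same genes (10 or 11 shared between any pair), and in root they gave 0.880, 0.459 and 0.793 for names 1, 3 and 4. At position 55 of the same names the root values were 0.864, 0.832 and 0.820.

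Ser-GCT-1 also listed position 27, the first base of the anticodon stem. The fraction was 0.533 in seedling, 0.396 in shoot, 0.079 in root, 0.440 in rosetta leaf, 0.409 in cauline leaf, 0.241 in stem, 0.396 in flower, 0.278 in silique and 0 in seed, and it passed in seedling, shoot and both leaves. Its median of 0.396 compares with 0.300 over 17 other nuclear sites at position 27. Ser-GCT-3 and Ser-GCT-4 match 10 genes each with a T at 27 and listed no site there.

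In Leu tRNAs the same part of the anticodon arm again differed between anticodons, with medians of 0.665 (TAG), 0.253 (AAG) and 0.073 (CAA). The T of Leu-TAG-1 stands alone, while those of Leu-AAG-1 and Leu-CAA-1 lie in a run of Ts. Whether TAG differs by anticodon or by the run cannot be told apart here. Leu-TAG-1 was above Ser-TGA-1 in 8 of 9 tissues. Leu-TAG-1 at position 39 gave 0.665 in seedling, 0.745 in shoot, 0.541 in root, 0.578 in rosetta leaf, 0.584 in cauline leaf, 0.676 in stem, 0.724 in flower, 0.706 in silique and 0.552 in seed, and passed in all. Leu-AAG-1 at position 38 gave 0.335, 0.253, 0.069, 0.405, 0.244, 0.392, 0.328, 0.253 and 0.151 in that order, and passed in 6 tissues. Leu-CAA-1 at position 39 gave 0.073, 0.064, 0.016, 0.131, 0.279, 0.153, 0.112, 0 and 0, and passed in cauline leaf and stem alone. Leu-TAG-1 was above Leu-AAG-1 in 9 of 9 tissues, including the 6 in which both had passed. Leu-AAG-1 was above Leu-CAA-1 in 8 of 9 tissues, the exception being cauline leaf, but stem was the single tissue in which both had passed. The TAA genes carry a T at 38 and at 39 and the CAG genes a T at 38, and neither their names nor Leu-CAA-2 listed a site there. Over other nuclear names the medians were 0.969 at position 38 (7 sites) and 0.766 at position 39 (16 sites).

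**Figure D3:**
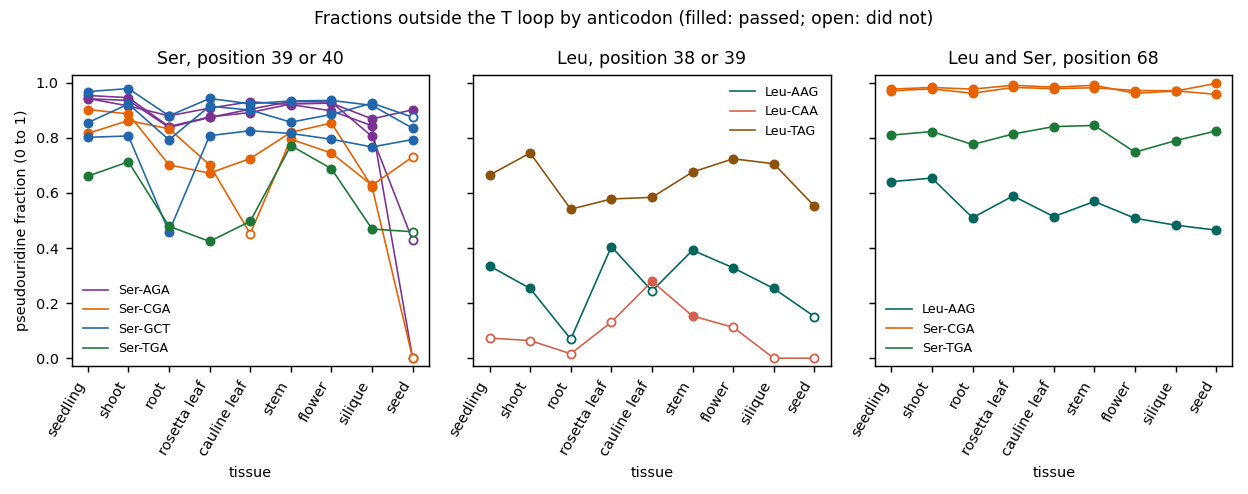
Ψ fraction (vertical axis, 0 to 1) in 9 tissues (horizontal axis) at position 39 or 40 of Ser names, position 38 or 39 of Leu names and position 68 of Ser and Leu names; each line is a tRNA name, coloured by anticodon, with filled points passed and open points not. At position 68 Ser-CGA lies above Ser-TGA and Ser-TGA above Leu-AAG in 9 of 9 tissues.

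Position 68, in the 3′ strand of the acceptor stem, was listed in Leu-AAG-1, Ser-CGA-1, Ser-CGA-2 and Ser-TGA-1 and passed in all 9 tissues in each. In both Ser-CGA names this base stands next to another T, so the deletion may lie at that neighbour. In Ser-TGA-1 and Leu-AAG-1 the T stands alone. Ser-CGA-1 stayed between 0.958 in seed and 0.983 in rosetta leaf, and Ser-CGA-2 between 0.962 in flower and 0.998 in seed. Ser-TGA-1 stayed between 0.748 in flower and 0.845 in stem, with a median of 0.814. Leu-AAG-1 gave 0.641 in seedling, 0.654 in shoot, 0.510 in root, 0.589 in rosetta leaf, 0.514 in cauline leaf, 0.569 in stem, 0.508 in flower, 0.483 in silique and 0.465 in seed. The 3 anticodons did not overlap in any tissue, and the 2 Ser-CGA sites had the smallest ranges over tissues of the 50 sites with 9 values. In both Ser-CGA names the level at 68 was at or above that at 55 in 8 of 9 tissues, whereas in Ser-TGA-1 and Leu-AAG-1 position 55 was above 68 in 9 of 9. A T at 68 without a listed site occurred in the matched genes of Ser-AGA-1-a (33 of 35), Ser-AGA-3 (2 of 2), Leu-CAG-1 (3 of 3), Leu-TAG-1 (3 of 9) and Leu-TAG-2 (3 of 10). The 6 other nuclear sites at this position had a median of 0.854.

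The Tyr anticodon arm was covered by a single name, Tyr-GTA-1-a. Listed base 35 gave 0.299 in seedling, 0 in shoot, 0.175 in root, 0.634 in rosetta leaf, 0.587 in cauline leaf, 0.190 in stem and 0 in flower, silique and seed. Only both leaf values had passed, and they were the 2 highest. Listed base 41 (position 39 in the annotated match) gave 0.507 in seedling, 0.538 in shoot, 0.333 in root, 0.302 in rosetta leaf, 0.570 in cauline leaf, 0.378 in stem, 0.169 in flower, 0.047 in silique and 0.187 in seed. It passed in the first 6 of these. The values that had not passed, in flower, silique and seed, were the lowest of the 9.

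The place of listed base 35 could not be settled. Only AT2G07753 and an identical gene hold a T at all 3 listed bases of Tyr-GTA-1-a as annotated, and there base 35 is the T before the anticodon (position 33). All 70 intron-containing Tyr genes also hold a T at the 3 bases if 75 bases are kept in place of the 74 that most keep in the annotation, and base 35 is then position 35, the middle of the anticodon. The place of listed base 41 is unsettled for the same reason. Its position 39 rests on the annotated match, and its position with 75 bases kept is not given here. At position 55 Tyr-GTA-1-a differed from Tyr-GTA-1-b by at most 0.065 in any tissue, and from Tyr-GTA-4, which matches AT2G07753, by up to 0.268 over all values and 0.147 where both had passed.

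The nuclear label of some Tyr names is also not settled by sequence. The representative genes of Tyr-GTA-3, Tyr-GTA-4 and Tyr-GTA-6 (AT2G07745, AT2G07753 and AT2G05355, all on chromosome 2) stand base for base in the mitochondrial genome as well, as does the annotated match of Tyr-GTA-1-a, so reads from either genome cannot be told apart. The counting rule put the sites of Tyr-GTA-3 and Tyr-GTA-6 at position 55 in 1 matched gene each, while 70 and 12 matched genes put them elsewhere. No matched gene of any Leu or Ser name had a copy in the mitochondrial genome.

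The 5 sites passed in a single tissue, a number close to the share among all tRNA sites, were the following. Ser-AGA-1-b at position 70, in the acceptor stem, stood at 0.707 in flower, where it passed, and between 0 and 0.180 in the other 8 tissues, with 4 of them listed at 0. Ser-AGA-1-b at listed base 51 and Ser-AGA-3 at listed base 53, both in a run of 3 Ts in the variable arm, also passed in flower alone, at 0.082 and 0.125. These bases hold the same place in a stretch that both genes share, so they are not separate cases. Flower was thus the single tissue passed at 3 of the 5 sites of this kind, all in Ser-AGA. The share of flower among such sites of all tRNAs is not given here. Leu-TAG-1 at listed base 21 in the D arm passed in shoot alone, at 0.349, and was listed at 0 in both leaves and seed. The fifth was Tyr-GTA-3. Of the other low sites, Ser-AGA-1-b at listed base 44 in the variable arm passed in shoot, rosetta leaf and cauline leaf at 0.066, 0.077 and 0.071, and its highest value, 0.095 in seed, had not passed.

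Leu-AAG-1 at position 3, in the 5′ strand of the acceptor stem, was higher in seedling, shoot and root than in the other tissues. It passed in seedling (0.281), shoot (0.436) and root (0.380). These came from plates and also from the younger plants, so growth on plates and age cannot be told apart, and neither was tested. The other 6 tissues gave 0.202 in rosetta leaf, 0.125 in cauline leaf and in stem, 0.075 in flower, 0.070 in silique and 0 in seed, none of which had passed. The 2 groups of tissues do not overlap, and root was higher than the median of the other 8 by 0.255. The base lies in a pair of Ts. The D arm, which held 26 of the 185 other nuclear sites, held 1 of the 51 here.

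Root was the lowest or joint lowest of the tissues at 27 of the 50 sites with a root value, where it was so at 62.1% of all tRNA sites. It fell short of the median over the 8 remaining tissues at 42 of 50 sites, beside 86.2% of all tRNA sites, with a median difference of -0.08 here and -0.13 over the other nuclear sites. At position 55 root was below at 21 of 24 sites, with a median difference of -0.12, and on passed values alone at 21 of 21. Over the other nuclear sites at position 55 root was below at 62 of 63, with a median difference of -0.15. Leu-CAA-2 gave 0.797 in root and 0.955 to 0.980 elsewhere, and Leu-AAG-1 0.812 in root and 0.951 to 0.987 elsewhere. In each of the 9 Ser names position 55 was lowest in root, with differences between -0.14 and -0.06. Root was likewise lowest or joint lowest at 57 of the 63 other nuclear sites at this position.

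The root difference was not even over sites. Leu-TAA-1 gave 0.909 in root, -0.005 from the median of the other tissues. Leu-TAA-2 gave 0.933, a difference of -0.04. Tyr-GTA-2-b, -d and -g gave 0.944 to 0.946 in root, 0.03 above the median of all other tissues but between -0.009 and -0.007 from the median of those that had passed. At position 68 the differences lay between -0.04 and -0.01. In the 4 names that list both positions the root difference at 55 and at 68 was -0.16 and -0.03 in Leu-AAG-1, -0.10 and -0.01 in Ser-CGA-1, -0.06 and -0.01 in Ser-CGA-2, and -0.09 and -0.04 in Ser-TGA-1. These pairs come from the same tRNA name in the same libraries. Over the 6 other nuclear sites at position 68 the median root difference was -0.12.

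Of 50 sites, 31 had a seed value under the median over the 8 remaining tissues, beside 70.9% of all tRNA sites. The count was 23 with values of 0 taken as missing, and 11 of 26 on passed values alone, where the median difference was 0.008 in place of -0.02. Seed stood lowest or joint lowest at 14 sites, beside 86 of the 344 tRNA sites with a seed value. Over the other nuclear anticodon-arm sites seed was below at 51 of 68, with a median difference of -0.05. The 15 anticodon-arm sites here were all below, with a median difference of -0.12, but 11 of them had not passed in seed. The 4 that had passed were Leu-TAG-1 (-0.12), Ser-GCT-1 at position 40 (-0.10), Ser-GCT-3 (-0.01) and Ser-AGA-1-a (-0.006). At position 55 seed was below at 10 of 24 sites, and the median difference was 0.01, beside 41 of 61 and -0.01 over the other nuclear sites there. Of the 23 values listed at 0 in the set, 8 were in seed, beside 50 of 155 over all tRNA sites.

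**Figure D4:**
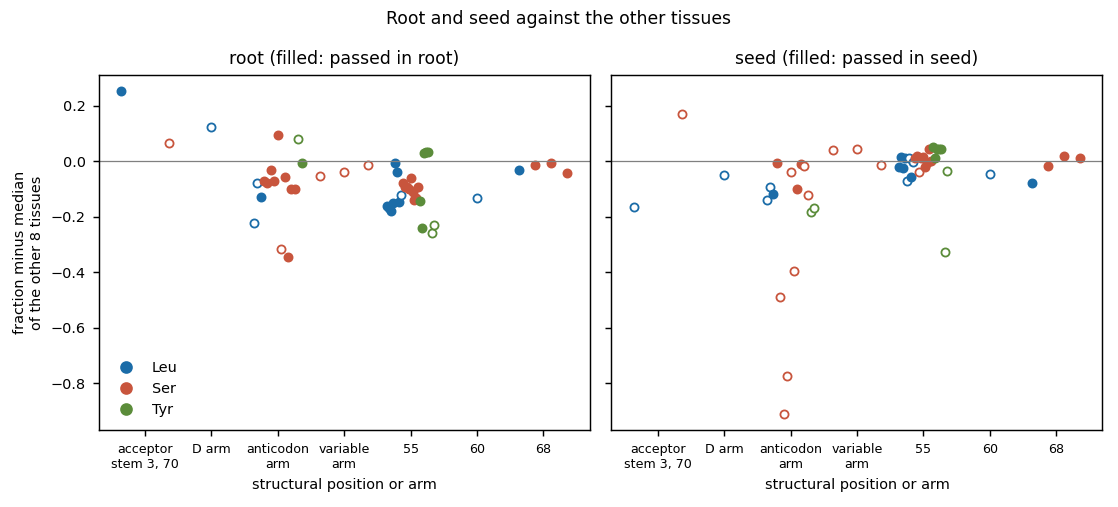
Ψ fraction in root (left) and seed (right) minus the median of the other 8 tissues (vertical axis) by structural position or arm (horizontal axis); each point is a site, coloured by amino acid, filled where it passed in that tissue. In root most position 55 sites lie below 0 while position 68 stays within -0.04 to -0.01; in seed all 15 anticodon-arm sites lie below 0 and 11 of those points are open.

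Names that share matched genes were alike at position 55 in some cases and not in others. Leu-CAA-1 and Leu-CAA-2, which match the same 10 genes, were equal to the third decimal in 4 tissues and differed by at most 0.037. Tyr-GTA-2-b and Tyr-GTA-2-g were equal in 8 of 9 tissues, and Tyr-GTA-2-d differed from both by at most 0.085, in rosetta leaf. The Ser-GCT pairs and the Ser-CGA pair were within 0.05 in 9 of 9 tissues. Leu-TAG-1 and Leu-TAG-2, which share 9 genes, were within 0.05 in 5 tissues and differed by up to 0.143, in cauline leaf. Tyr-GTA-1-b matches the same 75 genes as the Tyr-GTA-2 names, yet lay within 0.05 of them in 2 of 9 tissues and differed by up to 0.273, in root. Leu-TAA-1 and Leu-TAA-2, which share 1 gene, differed by up to 0.134, in seed.

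The organellar and jointly labelled tRNAs of the same amino acids held fewer sites. The 14 Leu, Ser and Tyr sites with the PT label had a median of 0.903 and the 12 with the nuclei-Mt label a median of 0.962. Root was below the other tissues at 12 and 11 of these.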

How the data were processed

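BID-seq of total RNA was made from 9 tissues, with 2 treated and 2 input libraries each (36 libraries). Per the study's methods, the authors ran their single reads through the pseudoU-BIDseq pipeline against TAIR10, summed gapped and ungapped reads of the replicates, and turned the gap ratio into a fraction with a calibration curve. The deposited fraction is thus 1 pooled value per site and tissue, with a pass flag whose thresholds are not given in the sources used here. Depth is unknown.

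From these values, medians and ranges over tissues were computed per site, with Python 3.11.15, numpy 2.4.6 and pandas 2.3.3. Structural positions came from TAIR10.1 genes, which were used for sequence only. Where matched genes disagreed, position 55 was taken if any gene gave it, otherwise the majority. The counting rule was run on simulated tRNAs built with the same fixed lengths at both ends and without introns. Such a run cannot test the choice among matched genes or annotated gene ends that differ. Every site not at position 55 was to be named, and at 55 the 3 highest and 3 lowest medians and 3 widest ranges. Other sites at 55 named in the text were chosen after their values were seen. The set and its rules were chosen with earlier results of these data known. Alternatives covered values of 0, the flag, the summary, copies and the tissues entering.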

Additional observations from a re-analysis of the deposited data

How the results depend on the processing

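No paired analysis was possible because the deposited fractions are pooled over replicates, and for the same reason no replicate could be left out. A value was taken as moved when it changed by 0.05 or more, a count when it changed by over 1.5 times. A fraction of at least 0.1 in place of the flag put 37 sites in all 9 tissues, with no share of all tRNA sites at hand to set beside it. Counting copies once gave 16 of 40 sites. Of all 51 sites, leaving out seed gave 31 and leaving out root 23. The level of the set was 0.722 with means in place of medians and between 0.906 and 0.934 under the other settings. The median range over tissues of 0.186 became 0.130 with passed values only, 0.115 without root and 0.089 without root and seed. The T loop minus anticodon arm difference of 0.24 became 0.326 with means and 0.301 with copies counted once. Against the lowest of the other 8 tissues, root was below at 25 sites and seed at 10. Leaving out Tyr names 3, 4 and 6, a setting chosen after the data were seen, moved none of the 6 summary results. Of 35 named sites, the median moved at 10 with passed values only, at 9 with means, at 2 with values of 0 as missing, at 2 without root and at 1 without seed. On passed values alone, also chosen after the data were seen, root was below at 35 of 37 sites and seed at 11 of 26, and the median seed difference turned from -0.02 to 0.008. Ser-TGA-1 at position 39 had a median of 0.579 without root or without seed, and Tyr-GTA-1-a at listed base 35 one of 0.095 without root. Causes were not tested, and the depth that limits each value is unknown.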
